A study of Homo sapiens with 9 samples.

Results

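The genes studied encode 10 ligands through which a tumour cell meets T cells, macrophages and natural killer (NK) cells. Their transcripts were measured in NCI-H358, an established human lung cancer line, and in a derivative already resistant to sotorasib. Sotorasib is a targeted small-molecule cancer drug. The genes were CD274, PDCD1LG2, CD276, CD47, PVR, NECTIN2, MICA, MICB, ULBP2 and LGALS9, taken by name as immune checkpoint ligands or ligands of NK cell receptors. They and the related lists below were chosen with earlier results of these data known. Their shares and medians beside all genes are therefore description and cannot show that these genes respond more than others. All 10 of 10 were found among the 60230 genes of the deposited tables, and all 10 passed the filter on low counts that left 17307 genes to test. Poly(A) RNA was sequenced in 3 states with 3 libraries each. On-drug cells were the resistant derivative NCI-H358-R, profiled 4 days after dosing with 250 nM sotorasib. Off-drug cells were the same derivative without sotorasib, for a length of time not stated in the labels. Parental cells were the untreated, sensitive NCI-H358 line. The derivative had been selected by culture in 250 nM sotorasib for about 2 months and is 1 resistant line, so the data hold no second, independently selected line. The libraries were described as biological replicates, but nothing in the labels ties them to separate cultures. The p-values therefore cover the spread among 3 libraries of a state, and part of it may be technical.

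CD274 (PD-L1) and PDCD1LG2 (PD-L2) bind the inhibitory receptor PD-1 on T cells, and CD276 (B7-H3) is a related surface protein that restrains T and NK cells through receptors that are still debated. CD47 binds SIRPA on macrophages and signals against engulfment. PVR (CD155) and NECTIN2 (CD112) bind the activating receptor DNAM-1 and the inhibitory receptor TIGIT, and NECTIN2 also binds the inhibitory receptor PVRIG, so the same ligands can stimulate or restrain a lymphocyte. MICA, MICB and ULBP2 are stress-induced relatives of MHC class I that bind the activating receptor NKG2D, and they can be shed from the cell surface by proteases. LGALS9 encodes galectin-9, a sugar-binding protein that interacts with TIM-3. In carcinoma cells several of these genes respond to interferon and growth factor signalling, and transcript levels do not give the amount of protein at the surface.

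The 250 bases upstream of the RefSeq start are shown, 5′ to 3′ on the strand of the gene, for the members with a promoter in the table that the results turn on most. These are CD274, CD47 and PVR, which had large differences between states, and the neighbouring copies MICA and MICB, which differed in how much they changed. The windows are chr9:5450292-5450541 (plus strand) for CD274, chr3:108091032-108091281 (minus strand) for CD47, chr19:44643660-44643909 (plus strand) for PVR, chr6:31403345-31403594 (plus strand) for MICA and chr6:31497895-31498144 (plus strand) for MICB, in GRCh38.p14. The RefSeq starts used here differ from the starts of the GENCODE gene spans given with each gene below. By those spans, the MICA, MICB and CD47 windows lie inside the gene, and the CD274 and PVR windows cross its start. The motif matches therefore describe the windows upstream of these RefSeq starts only. Capitals mark matches on either strand to any of 8 motifs that were searched.
CD274: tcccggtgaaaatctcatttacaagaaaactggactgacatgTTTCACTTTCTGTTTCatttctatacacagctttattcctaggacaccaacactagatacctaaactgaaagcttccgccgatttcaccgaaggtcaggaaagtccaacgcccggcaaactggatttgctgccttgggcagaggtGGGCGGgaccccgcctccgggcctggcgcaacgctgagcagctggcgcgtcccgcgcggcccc
CD47: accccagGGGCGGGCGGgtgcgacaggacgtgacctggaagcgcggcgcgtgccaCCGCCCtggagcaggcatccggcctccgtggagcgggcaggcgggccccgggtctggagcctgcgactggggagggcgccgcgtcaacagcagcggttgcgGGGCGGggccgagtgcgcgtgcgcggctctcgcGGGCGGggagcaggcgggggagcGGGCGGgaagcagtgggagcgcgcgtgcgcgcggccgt
PVR: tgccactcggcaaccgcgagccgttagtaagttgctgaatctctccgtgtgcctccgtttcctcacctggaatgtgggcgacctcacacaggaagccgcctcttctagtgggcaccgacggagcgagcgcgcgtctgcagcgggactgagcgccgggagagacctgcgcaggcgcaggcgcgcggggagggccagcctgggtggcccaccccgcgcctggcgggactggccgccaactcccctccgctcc
MICA: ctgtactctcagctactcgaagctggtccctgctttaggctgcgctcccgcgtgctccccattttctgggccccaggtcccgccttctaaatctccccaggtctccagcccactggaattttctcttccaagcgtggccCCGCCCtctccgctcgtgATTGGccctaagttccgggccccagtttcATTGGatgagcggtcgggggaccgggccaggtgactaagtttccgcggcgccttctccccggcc
MICB: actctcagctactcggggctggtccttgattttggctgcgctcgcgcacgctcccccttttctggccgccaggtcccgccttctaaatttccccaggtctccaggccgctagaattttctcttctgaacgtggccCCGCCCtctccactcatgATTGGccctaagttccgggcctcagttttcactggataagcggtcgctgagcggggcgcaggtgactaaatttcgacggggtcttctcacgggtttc

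The motifs were the interferon response element (GAAA and GAAA on the same strand, parted by any 2 bases), the AP-1 site TGANTCA, the cyclic AMP response element TGACGTCA, the GC box GGGCGG, the CCAAT box CCAAT, the NF-kB site (GGG and TTTCC, parted by any 2 bases), the heat shock element (GAA, TTC and GAA, each parted by any 2 bases) and the ETS site CCGGAAGT. RefSeq promoters matched 9 of the 10 members by symbol, and PDCD1LG2 was the other. In the CD274 window the capitals hold 2 overlapping matches to the interferon response element on the reverse strand. These lie at positions -208 and -202 relative to the RefSeq start, and 1 GC box lies at position -63. A match to that element was found in 3.02% of the 35116 RefSeq promoters of the same length, and CD274 was the only one of the 9 matched members that held it. The CD47 window holds 6 GC boxes, of which 2 overlap, and a GC box occurs in 42.6% of promoters. The PVR window holds no match to the 8 motifs. MICA has 1 GC box and 2 CCAAT boxes and MICB 1 of each, all on the reverse strand, and CCAAT occurs in 32% of promoters. Aligned over 250 bases each, the MICA and MICB windows had 210 identical positions, 36 mismatches and 8 gap positions, an identity of 82.7%. A match is a description of letters and not a shown binding site.

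Estimated counts per library, in units of 1e6, summed to 33.39 to 34.73 on drug, 25.73 to 33.99 off drug and 25.7 to 31.79 in parental cells. Levels are given in TPM, a unit scaled for transcript length and depth, when genes are set side by side. Fold changes and the values per library beside them use CPM, counts scaled for depth with TMM factors in edgeR. The 7 epithelial markers, among them EPCAM and KRT8, summed to 3040 to 4000 TPM on drug, 4280 to 4860 TPM off drug and 4270 to 5140 TPM in parental cells. By mean TPM, EPCAM, KRT8, KRT18 and KRT19 were lowest on drug, KRT7 and CDH1 were highest on drug, and CLDN4 lay between. PTPRC, the pan-leukocyte marker, was at most 0.0662 TPM in any library, and CD3D and MS4A1, which mark T and B cells, were at 0 in all 9. The 14 leukocyte markers summed to 6.97 to 7.62 TPM on drug, 48.6 to 57.8 TPM off drug and 37.9 to 42.3 TPM in parental cells, with 4 of them at 0 in all 3 on-drug libraries, 6 in the off-drug and 6 in the parental ones. Nearly all of that sum was CD68, a lysosomal protein that other cells also make, at 5.86 TPM on drug, 51.9 TPM off drug and 38.4 TPM in parental cells. The 7 fibroblast markers summed to 78.6 to 99 TPM on drug, mostly LUM at 69.4 TPM, against 5.88 to 7.79 TPM off drug and 7.98 to 10.3 TPM in parental cells. The 7 endothelial markers summed to 3.79 to 5.5 TPM on drug, 17.9 to 20.5 TPM off drug and 2.43 to 3.03 TPM in parental cells. KDR was the largest of them on drug at 2.53 TPM and in parental cells at 1.68 TPM, and had 3.58 TPM off drug, where ESAM was largest. ESAM had 0.555 TPM on drug, 11.1 TPM off drug and 0.595 TPM in parental cells, and the defining CDH5 had 0.827 TPM on drug, 0.0815 TPM off drug and 0.0604 TPM in parental cells. The endothelial sum was highest off drug, as were CD274 and PVR below, the fibroblast sum was highest on drug, as was CD47, and the part of these marker genes in the results was not tested. In such bulk samples, fewer cells of a type and less RNA per cell cannot be told apart.

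Between on-drug and off-drug cells, 2 of the 10 genes rose and 7 fell at an adjusted p under 0.05, and CD276 did not pass. Of all genes tested, 31.4% were called higher, 31.2% lower and 62.6% in either direction. The genes that rose were CD47 and LGALS9. The median log2 fold change of the 10 was -0.66, against 0.02 over all genes tested, and the median absolute change was 0.95, against 0.53. At a change of at least 2-fold, CD47 and LGALS9 were higher (13.5% of all genes) and CD274, PDCD1LG2 and PVR lower (11.3% of all genes), 5 of 10 members beside 24.8% of all genes. The CPM ranges of the groups did not overlap for any of the 10, which held for 67.6% of all genes.

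Between off-drug and parental cells, 6 genes rose (CD274, PDCD1LG2, CD47, PVR, MICA and MICB), beside 28.4% of all genes. CD276 and LGALS9 fell, beside 26.6% of all genes, and NECTIN2 and ULBP2 did not pass, so 8 of 10 were called in either direction, beside 55.0% of all genes. The median log2 fold change of the 10 was 0.57, against 0.0007 over all genes. Changes of at least 2-fold were found for CD274, PDCD1LG2, PVR and MICB, which were higher (7.49% of all genes), and for LGALS9, which was lower (9.73% of all genes), 5 of 10 members beside 17.2% of all genes. The CPM ranges did not overlap for 8 of the 10, beside 61.9% of all genes. The off-drug libraries enter both of these comparisons, so a high or low off-drug value moves the 2 changes in opposite directions.

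Between on-drug and parental cells, CD47, MICA and MICB rose, beside 33.4% of all genes. CD274, CD276, PVR, NECTIN2, ULBP2 and LGALS9 fell, beside 32.9% of all genes, and PDCD1LG2 did not pass, so 9 of 10 were called, beside 66.3% of all genes. The direction of LGALS9 turned on the TPM scale, as given with its values below. Changes of at least 2-fold were found for CD47 and MICB, which were higher (13.4% of all genes), and CD274, which was lower (13.9% of all genes), 3 of 10 members beside 27.3% of all genes. The median log2 fold change of the 10 was -0.41, against 0.02 over all genes, and their median absolute change was 0.67, against 0.58. The CPM ranges did not overlap for 9 of the 10, beside 69.0% of all genes.

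**Figure D1:**
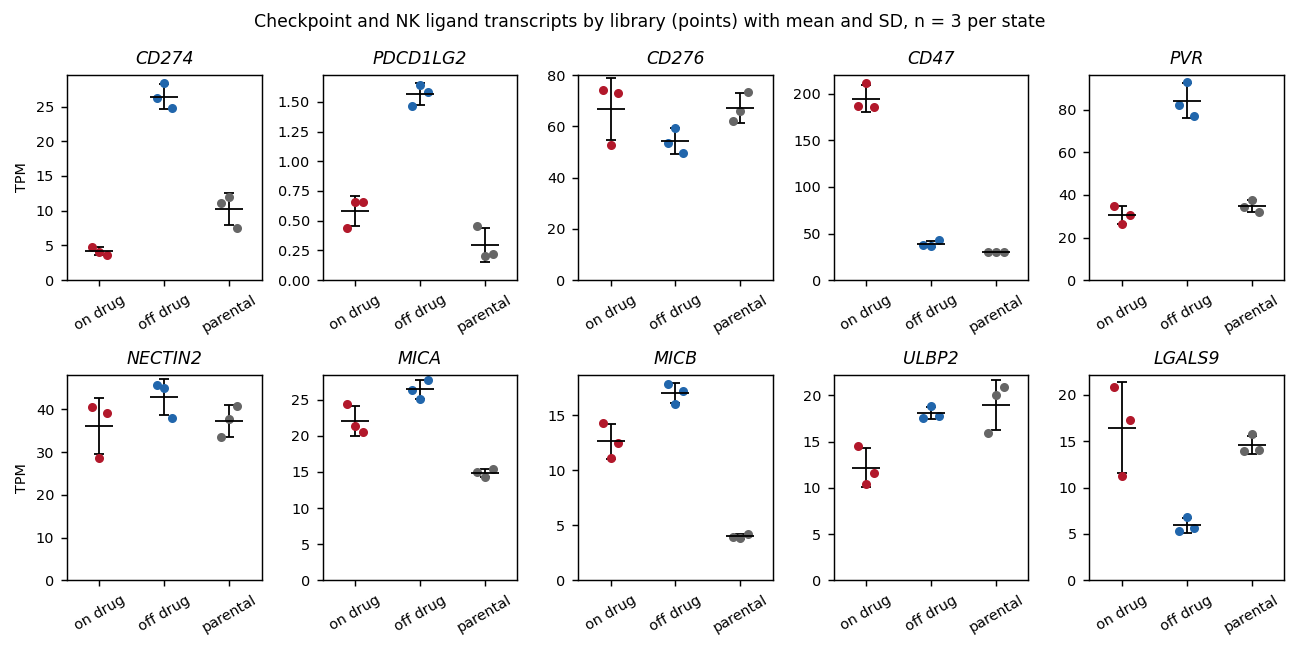
Transcript level in TPM (vertical axes, each starting at 0) of the 10 ligand genes in every library (points) with the mean and SD of 3 libraries, for on-drug, off-drug and parental cells from left to right. CD274 and PVR are highest off drug, at 26.4 and 84.2 TPM on average, CD47 stands at 194.9 TPM on drug, and MICB is lowest in parental cells at 4.01 TPM.

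The order of the transcripts differed between states, as the plot of levels shows. On drug, CD47 stood first at 194.9 ± 14.6 TPM (SD, n = 3 here and below), ahead of CD276 at 66.7 ± 12.02 TPM. NECTIN2 at 36.1 ± 6.46 TPM and PVR at 30.6 ± 4.17 TPM had overlapping ranges. MICA at 22.1 ± 2.05 TPM, LGALS9 at 16.5 ± 4.88 TPM, MICB at 12.6 ± 1.62 TPM and ULBP2 at 12.2 ± 2.15 TPM followed, each overlapping the next. CD274 at 4.15 ± 0.541 TPM and PDCD1LG2 at 0.583 ± 0.127 TPM were separate from the rest and from each other.

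Off drug, PVR stood first at 84.2 ± 8.24 TPM, ahead of CD276 at 54.2 ± 4.93 TPM. NECTIN2 at 42.9 ± 4.24 TPM and CD47 at 39.0 ± 3.16 TPM overlapped. CD274 and MICA also overlapped, at 26.4 ± 1.82 and 26.4 ± 1.31 TPM, and so did ULBP2 at 18.1 ± 0.67 TPM and MICB at 17.0 ± 0.92 TPM. LGALS9 at 5.92 ± 0.79 TPM and PDCD1LG2 at 1.56 ± 0.092 TPM were lowest.

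In parental cells CD276 stood first at 67.1 ± 5.80 TPM. NECTIN2 at 37.3 ± 3.69 TPM and PVR at 34.7 ± 2.85 TPM overlapped, and CD47 at 30.5 ± 0.116 TPM and ULBP2 at 19.0 ± 2.68 TPM came below them. MICA and LGALS9 overlapped at 14.9 ± 0.577 and 14.6 ± 0.999 TPM. CD274 at 10.2 ± 2.30 TPM, MICB at 4.01 ± 0.214 TPM and PDCD1LG2 at 0.293 ± 0.144 TPM followed without overlap.

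**Figure D2:**
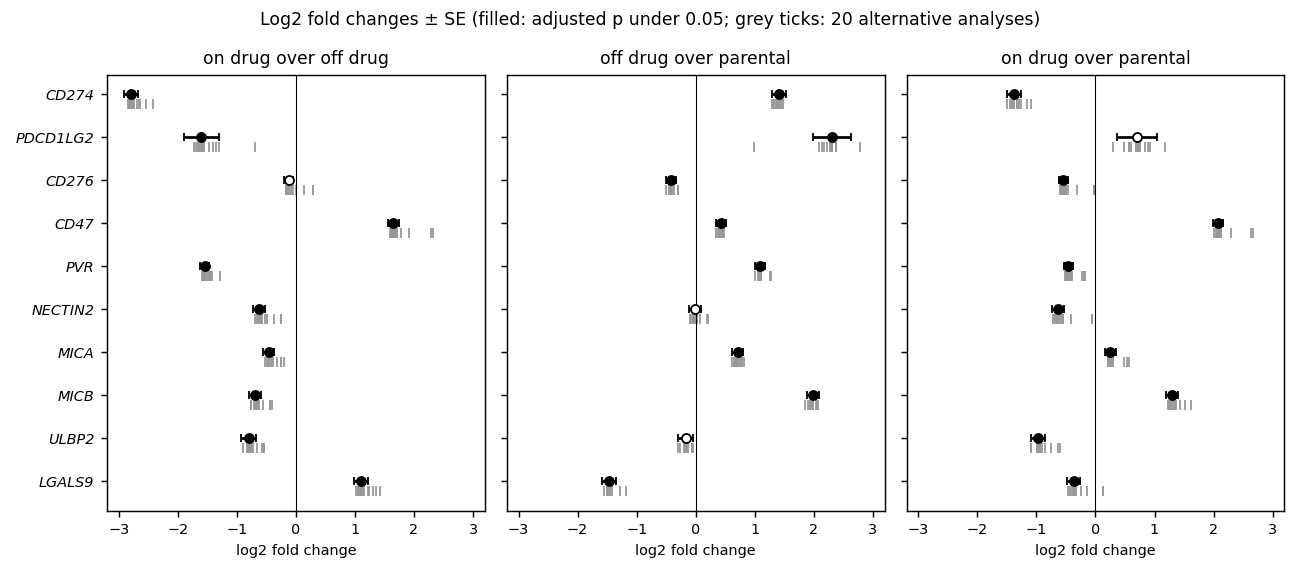
Log2 fold change with its standard error (black) of each gene in the 3 comparisons, the first-named state of each title over the second, filled where the adjusted p was under 0.05, with grey ticks for 20 alternative analyses. CD274 lies at -2.79, 1.41 and -1.38, and the ticks cross 0 for CD276 between on-drug and off-drug cells, NECTIN2 between off-drug and parental cells and LGALS9 between on-drug and parental cells.

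CD274, the main PD-1 ligand of carcinoma cells (ENSG00000120217.14, chromosome 9 at 5450503 to 5470566 on the plus strand, GENCODE 29 on GRCh38), had 10.4, 10.2 and 8.46 CPM on drug, 64.9, 70.3 and 65.5 CPM off drug and 27.1, 27.8 and 20.6 CPM in parental cells. All on-drug libraries lay below all parental libraries, and these lay below all off-drug libraries. On-drug cells had 6.91-fold less than off-drug cells (log2 fold change -2.79 ± 0.12 SE, adjusted p = 1.13e-11, edgeR quasi-likelihood test with Benjamini-Hochberg adjustment over all genes, as for every adjusted p below unless another tool is named). Of all genes tested, 2.03% had a lower value in that comparison. Off-drug cells had 2.66-fold more than parental cells (1.41 ± 0.11, adjusted p = 3.66e-08), and on-drug cells had 2.60-fold less than parental cells (-1.38 ± 0.12, adjusted p = 4.13e-08). The 20 alternative analyses gave -2.84 to -2.42, 1.29 to 1.48 and -1.50 to -1.10 for these 3 comparisons, and all kept the calls.

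PDCD1LG2, the less abundant PD-1 ligand (ENSG00000197646.8, chromosome 9 at 5510570 to 5571254), held only 25, 40 and 40 estimated counts on drug, 65, 70 and 93.0 off drug and 26, 9 and 12 in parental cells. The off-drug libraries lay above all others, and the on-drug and parental ranges overlapped in CPM. The log2 fold change was -1.61 ± 0.29 between on-drug and off-drug cells (adjusted p = 0.00019) and 2.31 ± 0.32 between off-drug and parental cells (adjusted p = 1.81e-05). On the log2(TPM + 1) scale, which understates changes of low genes, these were -0.70 and 0.99 in limma. Between on-drug and parental cells it was 0.71 ± 0.34 (adjusted p = 0.0789). That call depended on single libraries, since it passed at 1.18 without parental replicate 1 (adjusted p = 0.0125) and at 0.89 without on-drug replicate 1 (adjusted p = 0.0407). It also passed with scaling by library size only (0.93, adjusted p = 0.024) and on log2(TPM + 0.1) in limma (0.84, adjusted p = 0.0401).

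The 2 PD-1 ligand genes lie side by side on chromosome 9. Among the 6 nearest tested protein-coding neighbours, PLGRKT, a plasminogen receptor gene 12.6 kb from CD274, had log2 fold changes of -1.79 ± 0.12 on drug over off drug (adjusted p = 1.70e-09), 0.65 ± 0.11 off drug over parental (adjusted p = 0.00014) and -1.14 ± 0.11 on drug over parental (adjusted p = 2.70e-07). RIC1, 57.8 kb away on the other side, had -0.41 ± 0.13 on drug over off drug (adjusted p = 0.0123) and 0.49 ± 0.13 off drug over parental (adjusted p = 0.00496). The other 4 neighbours were not called between on-drug and off-drug cells. The 3 genes with the pattern most like CD274 by Pearson correlation of log2 CPM over the 9 libraries were CLIC4, CNTN1 and SLC38A2, at r of 0.998, 0.997 and 0.996 among 9165 candidates. With 3 states, such values follow mostly from the order and spacing of 3 means.

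CD276, an inhibitory B7 family protein often abundant on carcinomas (ENSG00000103855.18, chromosome 15 at 73683966 to 73714518), had 144.5, 122 and 146 CPM on drug, 146, 152 and 152 CPM off drug and 192, 198 and 212 CPM in parental cells. On drug and off drug nearly touched, and both lay below parental. The log2 fold change of on-drug over off-drug cells, -0.13 ± 0.08, did not pass (adjusted p = 0.196), and its sign turned with upper-quartile scaling, library size only and both TPM scales, at 0.01 to 0.29 and also without a call. CD276 fell by 0.42 ± 0.08 in off-drug over parental cells (adjusted p = 0.000502) and by 0.54 ± 0.08 in on-drug over parental cells (adjusted p = 2.73e-05). On TPM both falls missed the threshold, with -0.30 and -0.31 off drug over parental (adjusted p = 0.096 and 0.0912) and -0.02 on drug over parental (adjusted p = 0.902 and 0.903). The genes most like CD276 in pattern were LGALS3BP, KLK6 and CAPN1, at r of 0.994, 0.993 and 0.988.

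CD47, the signal that holds back macrophages (ENSG00000196776.17, chromosome 3 at 108043094 to 108091862 on the minus strand), had 271, 316 and 281 CPM on drug, 90.7, 86.4 and 98.8 CPM off drug and 67.02, 65.6 and 72.8 CPM in parental cells. No library of one state reached the range of another. CD47 was 3.14-fold higher on drug than off drug (log2 1.65 ± 0.09, adjusted p = 1.47e-10), 1.34-fold higher off drug than in parental cells (0.43 ± 0.09, adjusted p = 0.000569) and 4.22-fold higher on drug than in parental cells (2.08 ± 0.09, adjusted p = 9.84e-12). Of all genes tested, 93.3% had a lower change than CD47 between on-drug and off-drug cells. On the TPM scale the change between these states was larger, reaching 2.32. The estimated count per TPM of CD47, which follows the length of the transcripts that reads were assigned to, was 0.815 to 0.873 on drug, 1.07 to 1.20 off drug and 1.01 to 1.03 in parental cells, relative to its own mean and to the median gene. On-drug over off-drug this was 0.734-fold, and 3.67% of 12929 genes had a larger difference in either direction. GENCODE 29 lists 6 CD47 transcripts, of which 5 are protein-coding and span 469 to 5225 bases. The per-gene tables do not say which transcripts the reads came from.

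PVR, the poliovirus receptor and high-affinity TIGIT ligand (ENSG00000073008.15, chromosome 19 at 44643798 to 44663583), had 95.4, 80.8 and 93.6 CPM on drug, 260.2, 273 and 257 CPM off drug and 124, 126 and 120.5 CPM in parental cells. The off-drug libraries stood far above the others, and the on-drug libraries lay somewhat below the parental ones. PVR was 2.93-fold lower on drug than off drug (log2 -1.55 ± 0.08, adjusted p = 1.46e-10) and 2.13-fold higher off drug than in parental cells (1.09 ± 0.08, adjusted p = 1.67e-08). Between on-drug and parental cells it fell by 0.46 ± 0.08 (adjusted p = 0.000105), a call that was lost on TPM (-0.18 and -0.19, adjusted p = 0.198 and 0.195). TPM4, MSN and MAP4K4 were most like PVR in pattern, at r of 0.998, 0.997 and 0.997. CEACAM19 overlaps the end of PVR on the same strand and had 4.67 TPM on drug, 8.93 TPM off drug and 6.58 TPM in parental cells, and its log2 fold changes were -1.20 ± 0.09 on drug over off drug (adjusted p = 1.60e-08) and 0.39 ± 0.09 off drug over parental (adjusted p = 0.00181). An antisense gene, AC243964.2, also overlaps PVR, at 1.12 TPM on drug, 1.37 TPM off drug and 0.684 TPM in parental cells. The sources used here name no strand setting, so reads of overlapping genes may be shared.

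NECTIN2, the partner ligand that PVRIG binds (ENSG00000130202.10, chromosome 19 at 44846175 to 44889228), had 71.0, 58.3 and 74.7 CPM on drug, 109, 104 and 102 CPM off drug and 95.6, 104 and 118 CPM in parental cells. The on-drug libraries lay below the others, and off-drug and parental libraries overlapped. NECTIN2 fell by 0.63 ± 0.10 on drug over off drug (adjusted p = 5.1e-05) and by 0.64 ± 0.10 on drug over parental (adjusted p = 3.75e-05). On TPM neither was called, at -0.25 and -0.26 (adjusted p = 0.15 and 0.147) and at -0.06 (adjusted p = 0.752 and 0.75). The estimated count per TPM of NECTIN2 was 0.845-fold on drug over parental, and 11.4% of genes had a larger difference. Off drug over parental the change was -0.01 ± 0.10 (adjusted p = 0.943), and its sign turned on TPM (0.20) and without off-drug replicate 3 (0.01) or parental replicate 3 (0.08), with no call.

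PVR and NECTIN2 share receptors, and the ratio of their levels within a library does not depend on how libraries are scaled. The TPM ratio of PVR over NECTIN2 was 0.855, 0.916 and 0.787 on drug, 1.8, 2.07 and 2.03 off drug and 1.02, 1 and 0.787 in parental cells. PVR exceeded NECTIN2 in all 3 off-drug libraries and in none of the on-drug ones. The summed TPM of both was 66.7 ± 10.5 on drug, 127.1 ± 11.6 off drug and 72.0 ± 3.93 in parental cells. An exact two-sided permutation test of the log2 ratio gave p = 0.1 for on drug against off drug and for off drug against parental cells, the smallest p that 3 against 3 libraries allow, and p = 0.3 for on drug against parental cells. Over the 12 such comparisons of 4 gene pairs, the Benjamini-Hochberg adjusted values of these exact tests were 0.109 and 0.3.

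**Figure D3:**
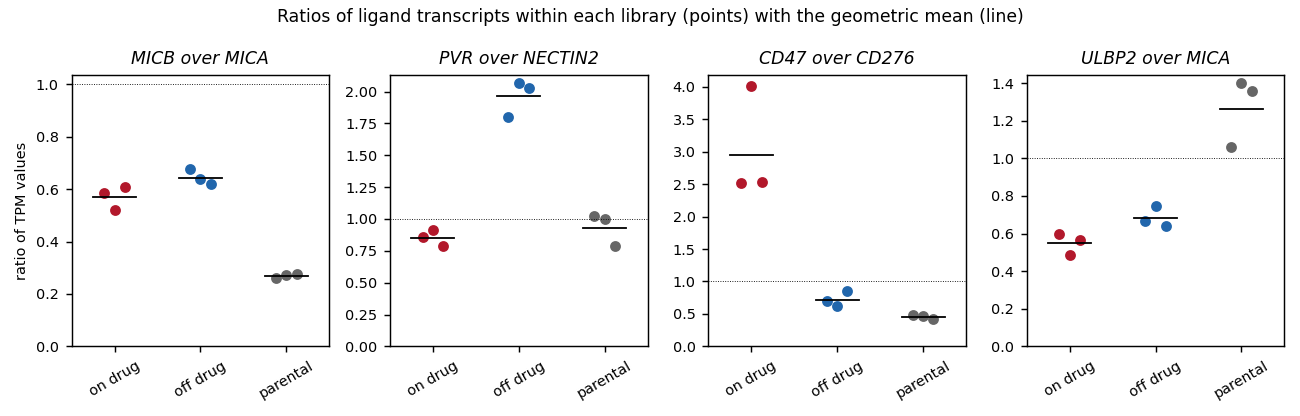
Ratio of the TPM values of 2 genes within each library (points) with the geometric mean (line) for 4 pairs, for on-drug, off-drug and parental cells from left to right, with a dotted line at a ratio of 1. PVR over NECTIN2 averages 1.96 off drug, against 0.851 on drug and 0.932 in parental cells, and ULBP2 over MICA averages above 1 in parental cells alone, at 1.26.

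The other ratios differed without overlap between the states. CD47 over CD276 averaged 2.95 on drug, 0.719 off drug and 0.455 in parental cells (geometric means), with on-drug replicate 2 highest at 4.01. MICB over MICA averaged 0.57 on drug, 0.644 off drug and 0.269 in parental cells. ULBP2 over MICA averaged 0.548 on drug, 0.684 off drug and 1.26 in parental cells. Each of these 9 comparisons had an exact permutation p of 0.1, again the smallest possible, and 0.109 after adjustment.

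MICA, an NKG2D ligand of the MHC class I region (ENSG00000204520.14, chromosome 6 at 31399784 to 31415315), had 23.0, 22.3 and 20.3 CPM on drug, 29.7, 27.6 and 32.7 CPM off drug and 18.2, 17.3 and 19.5 CPM in parental cells. The 3 states did not overlap, with off drug highest and parental lowest. MICA fell by 0.46 ± 0.09 on drug over off drug (adjusted p = 0.000422), which missed the threshold when only library size was used for scaling (-0.20, adjusted p = 0.0579), and rose by 0.71 ± 0.09 off drug over parental (adjusted p = 1.01e-05). The small rise on drug over parental, 0.25 ± 0.09 (adjusted p = 0.0259), depended on the libraries and the scaling. It was larger with library size only (0.48, adjusted p = 0.000235) and in limma on log2(TPM + 1) and log2(TPM + 0.1) (0.53 and 0.56, adjusted p = 0.000479 and 0.000481). With TMM it missed the threshold without parental replicate 1 (0.25, adjusted p = 0.0659), parental replicate 2 (0.21, adjusted p = 0.0998), on-drug replicate 1 (0.20, adjusted p = 0.108) or on-drug replicate 2 (0.23, adjusted p = 0.0646). HCP5, which overlaps MICA on the same strand, had 3.17 TPM on drug, 5.99 TPM off drug and 8.06 TPM in parental cells.

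MICB, the copy of MICA 79.6 kb away (ENSG00000204516.10, chromosome 6 at 31494881 to 31511124), had 23.6, 19.9 and 21.9 CPM on drug, 36.4, 31.8 and 37.7 CPM off drug and 8.64, 8.25 and 9.79 CPM in parental cells. Every library of the resistant line was above every parental one. MICB was 3.97-fold higher off drug than in parental cells (log2 1.99 ± 0.11, adjusted p = 5.37e-10) and 2.45-fold higher on drug than in parental cells (1.29 ± 0.11, adjusted p = 2.56e-08). On drug over off drug it fell by 0.69 ± 0.10 (adjusted p = 1.45e-05). All 20 alternatives kept the 3 calls, with ranges of 1.85 to 2.06, 1.22 to 1.62 and -0.76 to -0.41. The genes most like MICB in pattern were ING1, APOBEC3B and PLK1, at r of 0.998, 0.997 and 0.996. MICA and MICB are similar in sequence and vary between people, so reads may be split between them with error.

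HLA-B and HLA-C, the class I genes nearest to MICA, are ligands of inhibitory NK receptors. HLA-B had log2 fold changes of -0.34 ± 0.10 on drug over off drug (adjusted p = 0.00801), -1.46 ± 0.10 off drug over parental (adjusted p = 1.07e-08) and -1.80 ± 0.10 on drug over parental (adjusted p = 3.79e-10). HLA-C had -0.43 ± 0.10 on drug over off drug (adjusted p = 0.00154), -1.08 ± 0.10 off drug over parental (adjusted p = 2.21e-07) and -1.51 ± 0.10 on drug over parental (adjusted p = 2.41e-09). TCF19, the next tested gene, had 1.64 ± 0.10 on drug over off drug (adjusted p = 9.24e-10), 2.09 ± 0.12 off drug over parental (adjusted p = 1.10e-09) and 3.72 ± 0.12 on drug over parental (adjusted p = 4.51e-13), so the 3 nearest genes on this side of MICA did not share 1 direction.

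ULBP2, a glycolipid-anchored NKG2D ligand (ENSG00000131015.5, chromosome 6 at 149942000 to 149949235), had 11.0, 8.64 and 9.29 CPM on drug, 15.99, 16.8 and 17.5 CPM off drug and 15.7, 19.2 and 21.8 CPM in parental cells. The on-drug libraries lay below all others, and off-drug and parental libraries overlapped. ULBP2 fell by 0.80 ± 0.12 on drug over off drug (adjusted p = 3.8e-05) and by 0.97 ± 0.12 on drug over parental (adjusted p = 3.94e-06). Off drug over parental it differed by -0.17 ± 0.12 (adjusted p = 0.246). RAET1E, another ligand of the family 43.9 kb away, had log2 fold changes of -2.38 ± 0.17 on drug over off drug (adjusted p = 5.84e-09), -0.90 ± 0.14 off drug over parental (adjusted p = 5.83e-05) and -3.28 ± 0.17 on drug over parental (adjusted p = 7.56e-11). ULBP3 rose by 0.42 ± 0.11 on drug over off drug (adjusted p = 0.00397) and by 0.50 ± 0.11 on drug over parental (adjusted p = 0.00104). ULBP2 has near-identical relatives in the RAET1 cluster, and the counting may have split reads between them.

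Summed over the 8 NKG2D ligand genes (MICA, MICB, ULBP1, ULBP2, ULBP3, RAET1E, RAET1G and RAET1L), the level was 65.7, 52.1 and 55.4 TPM on drug, 74.9, 73.4 and 73.2 TPM off drug and 51.8, 54.9 and 54.4 TPM in parental cells. The off-drug libraries lay above all others, and the on-drug and parental ranges overlapped. MICB made up 21.8 ± 0.651% of the sum on drug and 23.1 ± 1.12% off drug, against 7.47 ± 0.394% in parental cells. MICA made up 38.3 ± 2.22% on drug, 35.8 ± 1.93% off drug and 27.8 ± 1.61% in parental cells. ULBP2 was the largest part in parental cells at 35.3 ± 4.0%, against 21.0 ± 1.15% on drug and 24.5 ± 1.06% off drug. RAET1E made up 1.5 ± 0.291% on drug, 5.37 ± 0.783% off drug and 12.8 ± 1.5% in parental cells, and ULBP3 made up 11.2 ± 0.173% on drug, 5.61 ± 0.923% off drug and 6.89 ± 0.937% in parental cells.

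**Figure D4:**
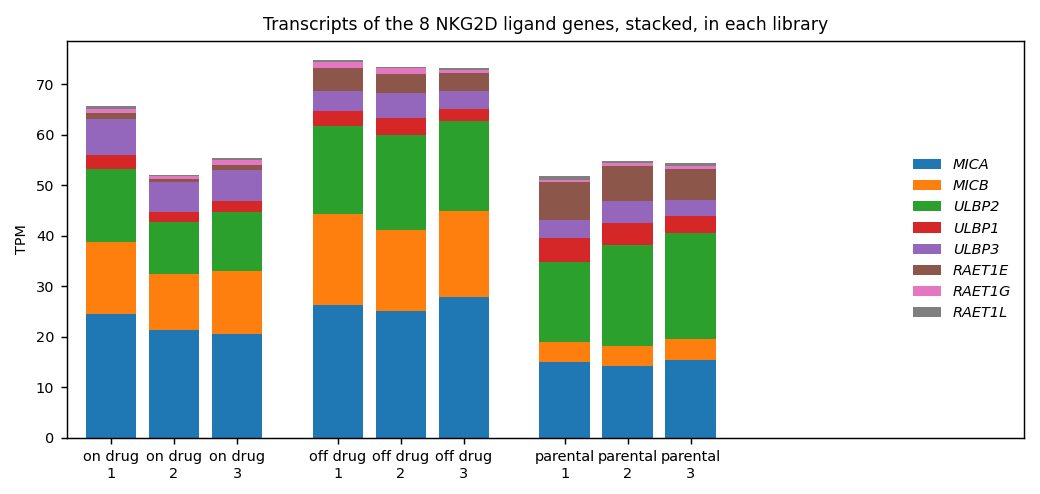
Stacked TPM of the 8 NKG2D ligand genes (vertical axis) in each of the 9 libraries, on-drug libraries first, then off-drug and parental ones. MICB is a wide band in the 6 libraries of the resistant line and a narrow one in the 3 parental libraries, and the RAET1E band is wider in parental libraries than in the others.

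LGALS9, encoding galectin-9 (ENSG00000168961.17, chromosome 17 at 27629798 to 27649560), had 18.6, 14.2 and 19.5 CPM on drug, 7.66, 8.27 and 8.51 CPM off drug and 21.5, 23.8 and 22.4 CPM in parental cells. It was lowest off drug in every library, and on-drug replicate 2 was the lowest of the on-drug libraries. LGALS9 was 2.14-fold higher on drug than off drug (log2 1.10 ± 0.12, adjusted p = 8.44e-07) and 2.77-fold lower off drug than in parental cells (-1.47 ± 0.12, adjusted p = 5.51e-08). On drug over parental it fell by 0.37 ± 0.11 (adjusted p = 0.00823) on the TMM scale, was -0.15 with library size only (adjusted p = 0.262), and turned to 0.13 on both TPM scales (adjusted p = 0.601 and 0.61). The near-identical genes LGALS9B and LGALS9C were low, with LGALS9B listed at 0 in all libraries and LGALS9C at 0.118 TPM on drug, 0.397 TPM off drug and 0.316 TPM in parental cells on average.

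On-drug replicate 2 had the lowest CPM of the on-drug libraries for CD276, PVR, NECTIN2, MICB, ULBP2 and LGALS9 and the highest for CD47. Without it, all members called between on-drug and off-drug cells kept their calls. TMM factors were 1.113 to 1.124 on drug, 0.917 to 0.95 off drug and 0.937 to 0.972 in parental cells. With library size only, the median log2 fold change of all genes moved to 0.27 on drug over off drug and 0.24 on drug over parental, and on TPM to between 0.13 and 0.32. With upper-quartile factors it moved to 0.15 on drug over off drug. Relative to the shifted median, CD276 on drug over off drug stayed at -0.14 with TMM, upper-quartile factors and library size only, and was 0.15 and 0.05 on the TPM scales. LGALS9 on drug over parental, relative to the median, stayed at -0.39 with those 3 scalings of counts and was -0.06 and -0.19 on TPM. A change of scaling moves all genes by nearly the same amount, so the agreement of those 3 follows from subtracting the median. It does not show that the direction of CD276 or LGALS9 is stable.

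Other checkpoint ligands moved in both directions. Of 34 such genes, 28 were tested, and 7 rose and 12 fell on drug over off drug, 11 rose and 12 fell off drug over parental, and 10 rose and 12 fell on drug over parental. Their median log2 fold changes were -0.17, -0.02 and -0.19, against 0.02, 0.0007 and 0.02 over all genes. Of all genes tested, 31.4% were higher and 31.2% lower on drug over off drug, 28.4% and 26.6% off drug over parental, and 33.4% and 32.9% on drug over parental. CD24, another signal to macrophages, through Siglec-10, rose by 2.96 ± 0.07 on drug over off drug (adjusted p = 3.94e-14), with 724 ± 42.6 TPM on drug, 81.0 ± 3.12 TPM off drug and 138 ± 7.25 TPM in parental cells. VTCN1 (B7-H4), an inhibitory B7 protein, had 5.46 ± 0.74 TPM on drug and at most 0.178 TPM in any other library, with 5.21 ± 0.34 on drug over parental (adjusted p = 1.45e-09). NT5E (CD73), which makes immunosuppressive adenosine, fell by 3.71 ± 0.09 on drug over off drug (adjusted p = 3.01e-14), at 39.0 ± 5.05 TPM on drug, 428 ± 37 TPM off drug and 188 ± 11.8 TPM in parental cells. CEACAM1, an inhibitory adhesion molecule, fell by 2.74 ± 0.12 on drug over off drug (adjusted p = 2.48e-11). NECTIN1, a nectin that pairs with other nectins, fell by 2.46 ± 0.10 off drug over parental (adjusted p = 4.71e-11) and by 4.41 ± 0.12 on drug over parental (adjusted p = 7.84e-14), and NECTIN4, a TIGIT ligand, by 1.24 ± 0.10 off drug over parental (adjusted p = 4.08e-08). ICAM1, the adhesion ligand of LFA-1, rose by 1.22 ± 0.11 off drug over parental (adjusted p = 9.9e-08). THBS1, a secreted ligand of CD47, rose by 2.87 ± 0.09 on drug over parental (adjusted p = 3.42e-13).

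Of 16 other ligands of NK receptors, 15 were tested. On drug over off drug 3 rose and 7 fell, off drug over parental 3 rose and 4 fell, and on drug over parental 4 rose and 6 fell, with medians of -0.61, -0.34 and -0.45, against 0.02, 0.0007 and 0.02 over all genes, of which the shares called are those given for the checkpoint ligands. PDGFD, a ligand of NKp44, rose by 2.85 ± 0.13 on drug over off drug (adjusted p = 3.0e-11), fell by 1.33 ± 0.14 off drug over parental (adjusted p = 8.58e-07) and rose by 1.52 ± 0.12 on drug over parental (adjusted p = 1.12e-08). PCNA, a replication clamp reported to bind NKp44, rose by 1.63 ± 0.09 on drug over off drug (adjusted p = 1.84e-10) and by 1.99 ± 0.09 on drug over parental (adjusted p = 1.69e-11). BAG6, a chaperone that binds NKp30, rose by 0.76 ± 0.08 off drug over parental (adjusted p = 1.26e-06). Among the genes that fell on drug over off drug, RAET1E, given above, fell by 2.38 ± 0.17 (adjusted p = 5.84e-09). VIM (vimentin) fell by 1.31 ± 0.09 in that comparison (adjusted p = 3.8e-09). It rose by 3.13 ± 0.10 off drug over parental (adjusted p = 2.51e-12) and by 1.82 ± 0.09 on drug over parental (adjusted p = 8.99e-11).

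Shedding and surface regulators, which can act on ligand or receptor proteins after transcription, were followed as a list of 17 genes. Some of them protect a protein and others mark it for degradation or shed it, so the counts give no single direction for the ligands. On drug over off drug 2 rose and 11 fell (median -0.35), off drug over parental 5 rose and 7 fell (median -0.06), and on drug over parental 3 rose and 9 fell (median -0.31). Over all genes the medians were 0.02 on drug over off drug, with 31.4% higher and 31.2% lower, 0.0007 off drug over parental, with 28.4% and 26.6%, and 0.02 on drug over parental, with 33.4% and 32.9%. MMP14, a membrane protease that can shed MICA, fell by 1.89 ± 0.13 on drug over off drug (adjusted p = 3.21e-09), rose by 3.11 ± 0.14 off drug over parental (adjusted p = 1.38e-10) and rose by 1.22 ± 0.15 on drug over parental (adjusted p = 2.49e-06). QPCTL, the enzyme that modifies CD47 for binding to SIRPA, fell by 1.09 ± 0.10 on drug over off drug (adjusted p = 1.17e-07) and by 1.01 ± 0.10 on drug over parental (adjusted p = 2.36e-07), where CD47 rose. CMTM6 and CMTM4, which protect PD-L1 from degradation, fell by 0.49 ± 0.07 (adjusted p = 2.06e-05) and 0.52 ± 0.11 (adjusted p = 0.000619) off drug over parental. GSK3B, a kinase that marks PD-L1 for degradation, fell by 1.09 ± 0.10 on drug over off drug (adjusted p = 1.27e-07) and rose by 0.87 ± 0.10 off drug over parental (adjusted p = 2.79e-06). PDIA6, a disulfide isomerase that takes part in MICA shedding, fell by 0.76 ± 0.08 on drug over parental (adjusted p = 4.09e-07).

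All 22 regulators of interferon and NF-kB signalling on the list were tested. Off drug over parental 13 rose and 3 fell (median 0.31), on drug over off drug 4 rose and 11 fell (median -0.17), and on drug over parental 6 rose and 6 fell (median 0.15). The shares of all genes were 28.4% higher and 26.6% lower off drug over parental (median 0.0007), 31.4% and 31.2% on drug over off drug (median 0.02), and 33.4% and 32.9% on drug over parental (median 0.02). JAK1 and JAK2, kinases of interferon receptors, rose by 0.75 ± 0.09 (adjusted p = 4.01e-06) and 0.84 ± 0.09 (adjusted p = 1.21e-06) off drug over parental, and MYC, a transcription factor reported to regulate CD274 and CD47, by 1.37 ± 0.08 (adjusted p = 1.44e-09). CD274 and CD47 also rose off drug over parental. MYC fell by 0.93 ± 0.08 on drug over off drug (adjusted p = 4.13e-08), where CD274 fell and CD47 rose. On drug over parental MYC rose by 0.43 ± 0.08 (adjusted p = 0.000174), where CD274 fell and CD47 rose. A part of MYC in these changes was not tested. IFNGR2, a chain of the interferon gamma receptor, fell by 1.57 ± 0.08 on drug over off drug (adjusted p = 1.79e-10) and by 1.13 ± 0.08 on drug over parental (adjusted p = 7.42e-09). NFKB2 fell by 1.33 ± 0.09 (adjusted p = 4.73e-09) and HIF1A, the hypoxia factor, by 1.55 ± 0.09 (adjusted p = 8.43e-10) on drug over off drug.

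The receptors of these ligands were mostly near 0. SIRPG was listed at 0 in all libraries, SIRPA and TIGIT held at most 1 estimated count in any library, and PDCD1 at most 8. Of 14 receptor genes 6 were tested, and none rose and 4 fell on drug over off drug, where 31.4% of all genes were higher and 31.2% lower. CD44, which galectin-9 binds, fell by 2.11 ± 0.08 on drug over off drug (adjusted p = 3.31e-12), at 17.9 ± 2.28 TPM on drug, 94.3 ± 2.83 TPM off drug and 43.2 ± 5.84 TPM in parental cells. RGMB, a partner of PD-L2, fell by 0.75 ± 0.10 on drug over off drug (adjusted p = 6.11e-06) and rose by 0.84 ± 0.10 off drug over parental (adjusted p = 3.1e-06).

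Around the members on chromosomes 6, 9 and 19, the 28 nearest tested protein-coding genes that are not members held 6 that rose and 13 that fell on drug over off drug, 10 that rose and 9 that fell off drug over parental, and 6 that rose and 13 that fell on drug over parental. Higher and lower calls over all genes were 31.4% and 31.2%, 28.4% and 26.6%, and 33.4% and 32.9% in the same 3 comparisons. Between PVR and NECTIN2, the NF-kB cofactor gene BCL3 fell by 0.88 ± 0.10 on drug over off drug (adjusted p = 7.10e-07), and CBLC, a ubiquitin ligase gene, by 1.42 ± 0.10 (adjusted p = 7.39e-09). Of the 6 neighbours of NECTIN2, 2 rose and 3 fell on drug over off drug, and 1 rose and 5 fell on drug over parental. Next to NECTIN2, TOMM40, a mitochondrial import gene 1.3 kb away, rose by 0.65 ± 0.10 on drug over off drug (adjusted p = 2.73e-05) and by 0.68 ± 0.10 on drug over parental (adjusted p = 1.33e-05), where NECTIN2 fell.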

How the data were processed

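Poly(A) RNA of 9 libraries, 3 per state, was measured. Per the labels' protocols, mRNA was pulled out with oligo(dT) beads, and NEBNext Ultra II RNA libraries were read in pairs on a NovaSeq. Per the submitters' processing notes, the tools were Salmon 0.14.1, bcl2fastq 2.17 and FastQC 0.12.1 and the build was GRCh38.p13, without a stated role or order. The sources used here give neither the annotation release nor the strand setting. The authors deposited estimated counts per gene, not scaled for depth, and TPM values, scaled for depth and for the length of the transcripts. The design assumed plain counts, so the estimated counts were rounded to whole numbers for count tests.

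One fit of all 9 libraries was made with edgeR 4.0.16 in R 4.3.3 (TMM, filterByExpr with a minimum count of 10 and total of 15, a mean per state, quasi-likelihood test). Calls needed an adjusted p under 0.05 (Benjamini-Hochberg, 17307 genes). The fit had 6 residual degrees of freedom and a common biological coefficient of variation of 0.0946. The SE is the size of the log2 fold change divided by the root of F. The steps were tested on simulated counts. No 2 libraries of a state agreed within sampling noise (lowest chi-square per degree of freedom 4.792), and none was merged. Alternatives were RLE and upper-quartile factors, library size only, no filter, a stricter filter, DESeq2 1.42.0, limma 3.58.1 voom, limma on log2(TPM) with 1 or 0.1 added, the replicate number as a block, fits of only the states compared, and each library left out.

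The members and lists were chosen with earlier results of these data known. Besides the members, the text names up to 4 called genes per list and comparison with the largest absolute change and an average log2 CPM of at least 1, the 3 nearest tested protein-coding genes on each side of 6 loci, and the 3 genes most like CD274, MICB, PVR and CD276. A selection of the genes that this rule took is given. Positions are from GENCODE 29, and promoters from RefSeq (GRCh38.p14).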

Additional observations from a re-analysis of the deposited data

How the results depend on the processing

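Of 600 values of the members' log2 fold changes under the alternatives, 570 kept their direction and call, 16 lost and 4 gained a call, and 10 changed sign, none of them with a call in the new direction. The sign changed for CD276 on drug over off drug with upper-quartile factors (0.0051), library size only (0.1298) and limma on log2(TPM + 1) and log2(TPM + 0.1) (0.2813 and 0.2854). It changed for NECTIN2 off drug over parental on those TPM scales (0.1977 and 0.2022) and when libraries were left out (-0.0792 to 0.0756), and for LGALS9 on drug over parental on TPM (0.1256 and 0.1304). Genes called lower on drug over off drug numbered 5403, and 3585 with library size only, 3261 and 3286 on the TPM scales. Off drug over parental they numbered 4602, and 2895 and 2951 on TPM, where 1 and 1 members were called lower in place of 2. On drug over parental they numbered 5690, and 3284 and 3298 on TPM, where 2 and 2 members were called lower in place of 6. The share of calls that were higher was 50.1% on drug over off drug, 68.5% with library size only, 60% with upper-quartile factors and 66.5% and 66.1% on TPM. It was 51.6% off drug over parental and 61.7% and 61.9% on TPM, and 50.4% on drug over parental, 64.3% with library size only and 70.2% and 70% on TPM. The cause of these moves was not tested. With the replicate number as a block, 5383 genes were higher and 5375 lower on drug over off drug, 4906 and 4537 off drug over parental, and 5768 and 5649 on drug over parental, and the block changed no count of members. Whether the numbers pair the libraries was not settled by correlating the deviations of libraries from their state means. These correlated at -0.034 to 0.135 for the same number and at -0.1 to 0.067 for different numbers. Of 9 libraries, 3 correlated best with their own number. Weak correlations of this kind cannot exclude a pairing. Depth limits PDCD1LG2 most, at 9 to 93.0 estimated counts per library.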
